A study of Caenorhabditis elegans with 4 samples.

Results

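The comparison described here set *kgb-1(km21)* mutant animals against wild-type animals that had received no copper, and it answers how the transcript levels of the 2 strains differed before any metal stress. It used 2 of the 4 arrays of the series, 1 for each strain. Both samples were 1 day adult *Caenorhabditis elegans* of the N2 Bristol strain, grown at 20 °C on NGM plates with OP50 bacteria, collected in water and kept in water for 1 h at room temperature before whole-animal RNA was taken. The other 2 arrays held the same genotypes after 1 h in 1 mM copper sulfate, and they are used below only to set a second, separately hybridized pair beside the water pair. The control animals were wild type at *kgb-1*, and both strains went through the water incubation. A probe set was counted as measured when it did not belong to the array's control features and the brighter of its 2 water signals reached 100. That rule kept 10818 of 22548 worm probe sets. Of these, 10318 carried 1 gene symbol and stood for 8195 genes, 336 carried several symbols and 164 none.

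KGB-1 is a JNK-type MAP kinase. It is activated by the MAPKK MEK-1 and the MAPKKK MLK-1 and is inactivated by the phosphatase VHP-1, and it is known for its role in the resistance of worms to heavy metals and in the fertility of the hermaphrodite. The study notes that basal KGB-1 activity is detectable in wild-type animals, which makes the unstressed levels of interest. An adult hermaphrodite consists largely of a germ line with oocytes and embryos, an intestine that makes yolk, and an epidermis covered by a collagen cuticle that is rebuilt at each molt, so the ratios are described by these tissues. Because whole animals were used, fewer cells of a type and less RNA per cell cannot be told apart.

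Each strain was represented by 1 RNA sample, and the number of animals in it was not given in the sources used here. The water comparison therefore has no replicate error and no p-value. Differences between the cultures of the 2 strains, in stage or in genetic background, cannot be told apart from the effect of the *km21* allele. All signals were MAS5 intensities scaled by array, and the trimmed mean of each of the 4 arrays was close to 500.1. As a measure of technical spread, the log2 ratios of the 18 hybridization controls had an SD of 0.21 and ran from −0.66 to 0.30. The 3′ to 5′ signal ratio of the catalase control was 4.61 in wild type and 3.63 in *kgb-1*, that of Gapdh was 1.01 and 0.942, and that of actin was 1.85 and 1.70. The part of RNA integrity in single ratios was not tested. The *kgb-1* probe set itself gave 129 in wild type and 179.5 in *kgb-1(km21)* in water, and 314 and 229 in copper. Where its probes lie relative to the deleted sequence was not analysed here, so it does not check the labels.

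Genes that define adult hermaphrodites were bright in both strains. The vitellogenin *vit-5*, which encodes a yolk protein of the intestine, gave 30572 in wild type and 29477 in *kgb-1*. The adult collagen *col-19* gave 5673 and 6398, and the oocyte yolk receptor *rme-2* gave 7399 and 7361. On these markers the labelled stage held in both samples. The other measured probe set of the adult collagen list, shared by *col-7* and *col-62*, gave 408 and 145, so the adult collagens did not all agree.

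Most transcripts had nearly the same level in the 2 strains. The median log2 ratio of *kgb-1* over wild type was 0.01 with an SD of 0.32 across probe sets, and 87.7% of measured probe sets lay within 0.41 of 0, which is 2 SD of the hybridization controls. A signal at least 2-fold lower in *kgb-1* was seen for 101 probe sets (0.934% of those measured), and a signal at least 2-fold higher for 65 (0.601%). These stood for 85 and 60 genes with 1 symbol.

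The differences past 2-fold lay mainly among dim probe sets. Of the 101 lower ones, 67 had a mutant signal under 100, where MAS5 values carry little order, and 34 had both signals at 100 or above. Of the 65 higher ones, 42 had a wild-type signal under 100 and 23 had both at 100 or above. With every signal under 100 raised to 100, 48 lower and 26 higher probe sets were left. For this reason a ratio whose dimmer signal was under 100 is given below as a lower bound against 100. At the edge of the measured set, *lim-7* with signals of 100.03 and 61.9 was just inside, and *hsp-12.6* with 99.96 and 93.6 was just outside.

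**Figure D1:**
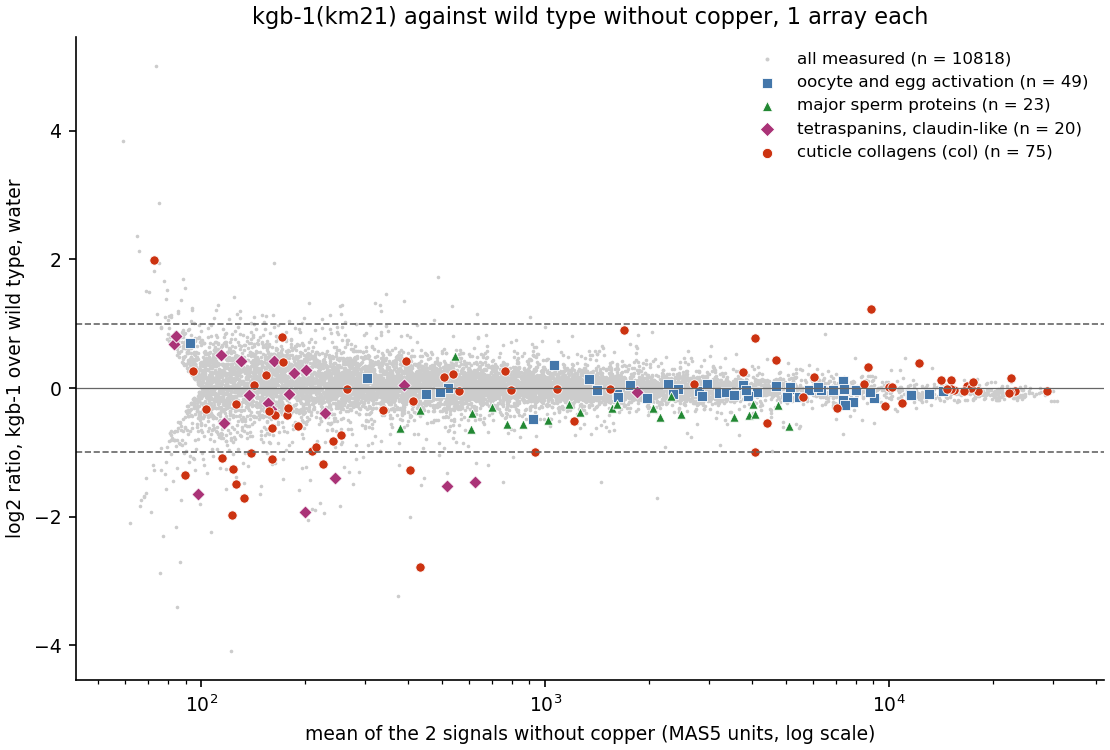
Log2 ratio of *kgb-1* over wild type in water (vertical axis) against the mean of both signals (horizontal log axis), 1 point for each of 10818 measured probe sets, with dashed lines at 2-fold. The points widen toward low signals, where most of the 101 lower and 65 higher probe sets lie.

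Several probe sets of 1 gene did not always agree in size. Of the genes past 2-fold, 28 had more than 1 measured probe set, and in 6 of these genes all of them passed. In the other 22 at least 1 did not.

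The largest differences toward lower signal were found in genes of the cuticle, the epithelia and the intestine and in genes with no assigned role. *col-63*, a cuticle collagen, gave 755 in wild type and 109 in *kgb-1*, a 6.92-fold lower signal. *M02H5.8*, a gene with no role known from the sources used here, gave 676 and 71.4, at least 6.76-fold lower. *ZK105.1* was the brightest gene among the 15 with the lowest ratios, with 3226 and 991, and was 3.25-fold lower. *F41F3.3* gave 2139.7 and 775, *ZK180.5* gave 344 and 99.8 on one probe set and 203 and 141 on another, and *srlf-30* gave 289 and 95.9 on one probe set and 251 and 94.2 on another. In each of these genes the copper pair was ordered the same way.

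Toward higher signal the differences were smaller. *ces-2*, which encodes a bZIP factor of programmed cell death, gave 147 in wild type and 358 in *kgb-1*. The DSL-family ligand gene *dsl-3* gave 218 and 559, and *pan-1*, which encodes a leucine-rich-repeat protein, gave 183 and 504 on one probe set and 171 and 232 on another. *hch-1*, which encodes the astacin-type protease needed for hatching, gave 203 and 464. *F21C10.9* gave 118 and 294, *peli-1* gave 158 and 352, and *F08G12.1* gave 101 and 222. Second probe sets of *peli-1* and *F08G12.1* hardly differed, with 473 and 509.5 and with 143 and 157.

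**Figure D2:**
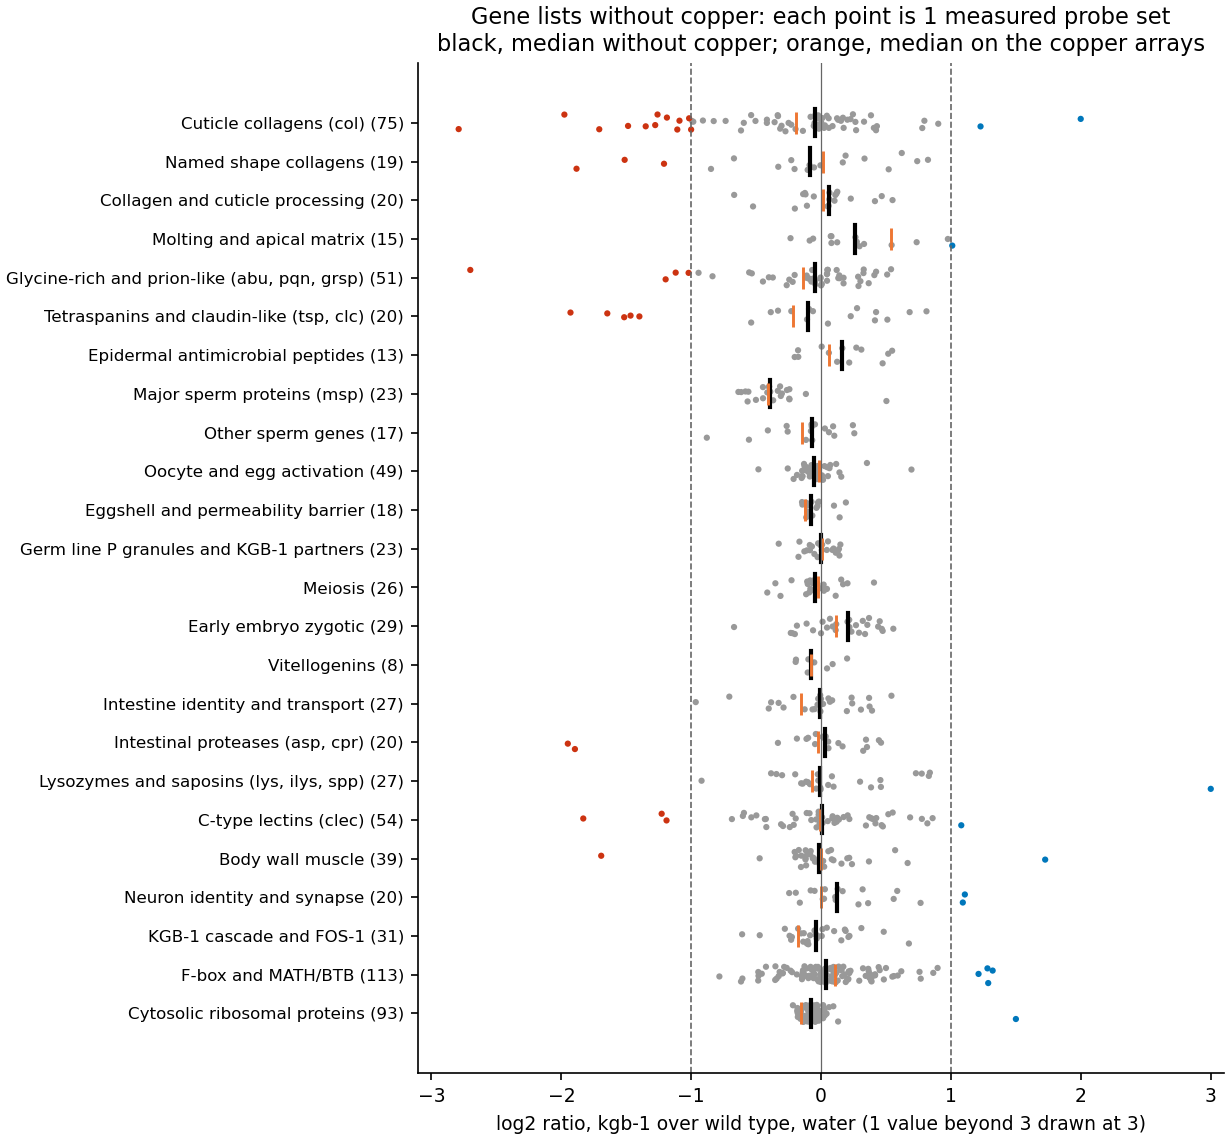
Log2 ratios in water for the measured probe sets of the gene lists (1 row a list), with the median in water in black and in copper in orange, dashed lines at 2-fold and 1 value beyond 3 drawn at 3. Of the lists drawn, the msp genes have the lowest median, at −0.39, while the collagen and tetraspanin and claudin rows hold single members far below 0.

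The cuticle collagens held the most probe sets past 2-fold of any list. Of 144 *col* probe sets on the array, 75 were measured, standing for 69 genes. In *kgb-1*, 12 of the 75 were at least 2-fold lower, which is 16% beside 0.934% of all measured probe sets, and 2 were at least 2-fold higher. The list did not shift as a whole. Its median log2 ratio was −0.05, 47 of the 75 lay below 0, and the summed signal was 414724 in wild type and 420891 in *kgb-1*. Since the members came from a family noted in earlier results of these data, the counts are a description. Collagen genes share sequence, and 40 of the 75 probe sets carried a suffix for probes shared between transcripts.

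Most of the lower collagens were dim, though *col-63*, *col-38* and *col-73* were not. The split uses all 4 arrays, so a low mutant signal itself lowers the mean. Split by the mean signal over the 4 arrays, the 28 *col* probe sets under 300 had 9 that were 2-fold lower, 1 that was 2-fold higher and a median of −0.61. All 3442 measured probe sets in that range held 75 lower ones (2.18%) and had a median of 0.07. The 16 collagens between 300 and 3000 held 2 lower ones and had a median of −0.02, beside 0.406% lower among all 6161. The 31 collagens above 3000 had a median of 0.00, with 1 lower and 1 higher.

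Among the lower collagens that stayed well above background, *col-38* gave 573 in wild type and 236 in *kgb-1*, 2.42-fold lower, and *col-39* gave 314 and 138. *col-73* was much brighter at 5436 and 2716, a 2-fold difference. *col-90* gave 196 and 49.9 (at least 1.96-fold lower), *col-49* gave 186 and 66.6, *col-91* gave 129 and 50.7, and *col-180* gave 174 and 72.8. *col-88* gave 157 and 73.6 in water but 109 and 117 in copper. Both probe sets of *col-97* were lower in the mutant, with 219 and 102 and with 186 and 92.2. *col-109* gave 204 and 62.5 on one probe set and 280.5 and 149 on another. *col-145*, with 1245 and 626, and *col-71*, with 279 and 141, stopped just short of 2-fold.

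Most bright collagens, which make up most of the collagen signal, hardly differed. *col-119* gave 29133 and 28246, *col-122* gave 22873 and 21623, and *col-93* gave 23680.4 and 22860.4. Besides *col-73*, the bright *col-12* passed 2-fold, with 5312 in wild type and 12438 in *kgb-1*. In copper its order turned, with 5041 and 3742, and 2 probe sets shared by *col-12* and *col-13* gave 9140 and 11069 and 11369 and 10687 in water. *col-34* gave 1179 and 2203 in water and 2129 and 1823 in copper. The other higher collagen was the dim *col-121*, with 29.1 and 116.

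Probe sets that match 2 collagens and could not be assigned were also lower. The set for *col-161* and *col-162* gave 649 and 161, and the set for *col-7* and *col-62* gave 408 and 145. Bright sets shared among *col-167* to *col-170* gave 6608 and 4389 and 6377 and 4310.2, short of 2-fold. With such sets included, 14 of 92 collagen probe sets were 2-fold lower.

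**Figure D3:**
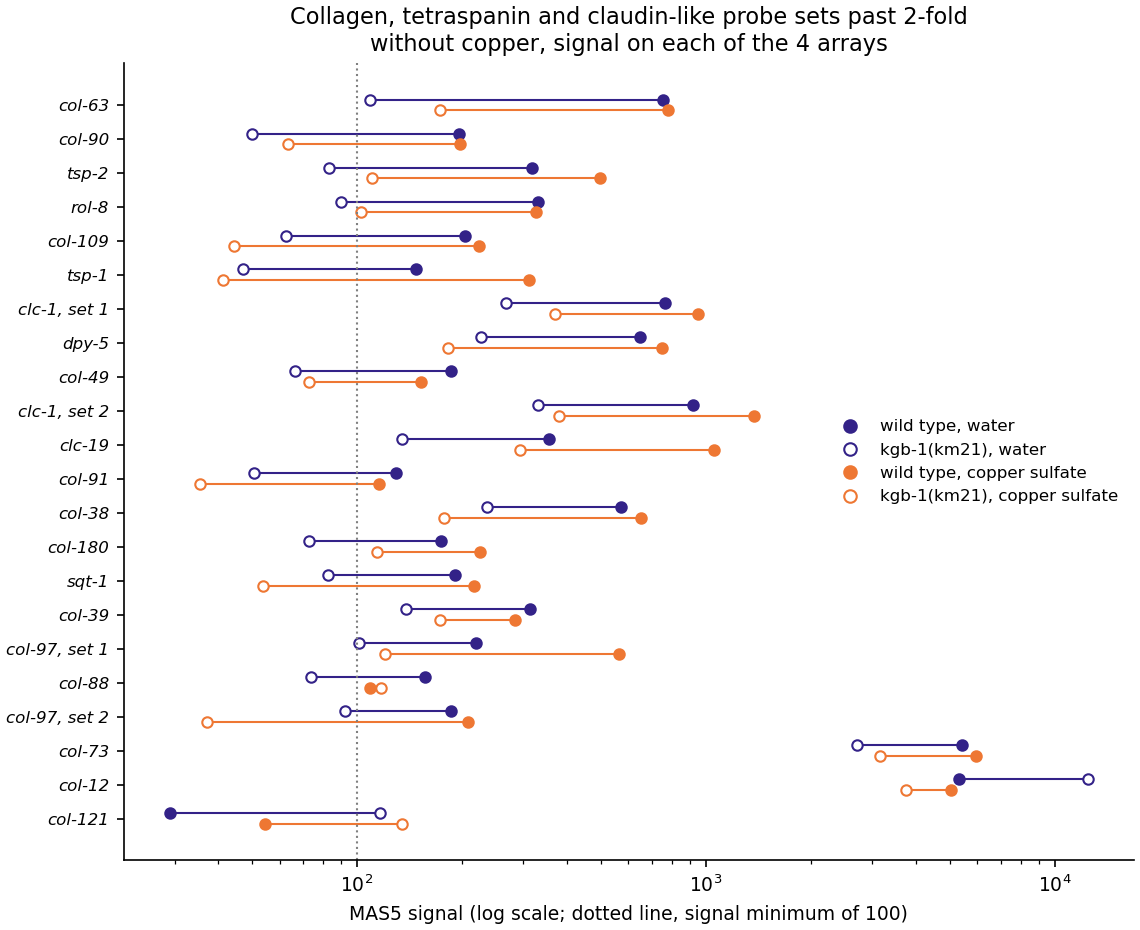
Signal (log axis, dotted line at 100) on all 4 arrays for the 22 collagen, tetraspanin and claudin-like probe sets past 2-fold in water, with wild type as filled and *kgb-1* as open circles, water above copper in each row. For *col-63*, *rol-8*, *dpy-5* and *clc-1* both *kgb-1* arrays lie below both wild-type arrays, while *col-88* and *col-12* change order between the treatments.

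Collagens that were found through body shape mutants divided into lower, level and higher members. Of 19 measured probe sets, 3 (15.8%) were 2-fold lower, beside 0.934% of all measured, none was 2-fold higher, and the median was −0.09. *rol-8* gave 331 and 89.7, at least 3.31-fold lower. *dpy-5* gave 645 and 226, 2.85-fold lower, and *sqt-1* gave 191 and 82.5, at least 1.91-fold lower. *rol-6* gave 203 and 113. Bright members were level, with 23055 and 21460.0 for *sqt-3* and 27528 and 27431 for *dpy-13*.

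Other shape collagens gave higher signals in the mutant, none of them past 2-fold. *dpy-17* gave 1341 in wild type and 2371 in *kgb-1*, and *dpy-14* gave 732 and 1222. The furrow collagens *dpy-7*, *dpy-3* and *dpy-2*, which form the circumferential furrows of the cuticle, gave 123 and 188, 126 and 180.4, and 137 and 154. Their median was 0.52 in water, and 0.20 in copper with 1 of the 3 below 0. Of the 3, 2 carried a shared-sequence suffix, and the single probe set without one had 0.17 in water. *rol-1*, which is not in this list and was chosen after its values were seen, gave 133 in wild type and 18.1 in *kgb-1*, and 216 and 18.4 in copper.

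Genes of molting and of the apical extracellular matrix leaned upward. Of 15 measured probe sets, 12 were above 0, the median was 0.26, and the summed signal was 5578 in wild type and 6737 in *kgb-1*. The list was dim, with a median wild-type signal of 240. All measured probe sets with a mean signal under 300 had a median of 0.07. *fbn-1*, which encodes a fibrillin-like matrix protein, was the only one past 2-fold, with 92.8 and 187. *sym-1*, an apical matrix protein of embryos, gave 286 and 562, and *noah-2* gave 408 and 594. *noah-1* gave 1563 and 1919 on one probe set and 458 and 576 on another. The protease inhibitor gene *mlt-11* gave 205 and 216, and 123 and 206. *nhr-23*, the nuclear receptor that drives molting, was an exception with 533 and 453. In copper 13 of the 15 were above 0 and *nhr-23* gave 280.4 and 530.4. Beside these, *cutl-2*, a cuticlin-like gene chosen after its values were seen, gave 32.2 and 114.

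Enzymes that process collagen, such as prolyl hydroxylase subunits and the procollagen protease *dpy-31*, had a median of 0.06 over 20 probe sets and none past 2-fold. *dpy-31* gave 155 and 215 on one probe set and 159.8 and 234 on another, the cuticlin *cut-2* gave 641 and 403, and *pdi-2*, a subunit of prolyl hydroxylase, gave 3805 and 3979.

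The tetraspanins and claudin-like proteins are membrane proteins with 4 membrane-spanning segments, and the claudin family is known from epithelial junctions. Of 20 measured probe sets, 5 (25%) were 2-fold lower in *kgb-1*, beside 0.934% of all measured, and none was higher, with a median of −0.10. These 5 stood for 4 genes. The list, which joins the *tsp* and *clc* families, was chosen with earlier results of these data known, so the counts are a description. The summed signal was 6672 in wild type and 5058 in *kgb-1*. *clc-1*, expressed in epithelia, had 2 probe sets that gave 765 and 268 and 916 and 331, 2.86-fold and 2.76-fold lower. *tsp-2* gave 317 and 83.1, at least 3.17-fold lower, *tsp-1* gave 148 and 47.2, at least 1.48-fold lower, and *clc-19* gave 355 and 135, 2.64-fold lower. The brightest member, *tsp-12*, was level at 1891 and 1811, and *tsp-20* gave 61.3 and 108.

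Among the glycine-rich and prion-like proteins of the *abu*, *pqn* and *grsp* families, many of which are made in the pharyngeal cuticle, 4 of 51 probe sets were 2-fold lower, beside 0.934% of all measured and 2.18% of those with a mean under 300, and none was higher. All of these 4 belonged to dim *abu* genes. *abu-8* gave 149.9 and 23.1 on one probe set and 166 and 81.8 on another, *abu-15* gave 224 and 103, and *abu-13* gave 101 and 44.0. *abu-6* gave 168 and 87.3, *abu-14* gave 306 and 171, and the bright *pqn-59* gave 5331 and 5045.

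Other epidermal genes showed little difference. The 26 hedgehog-related and patched-related probe sets had a median of −0.02, with *grl-21* lower at 154 and 44.2 and *grl-27* higher at 48.4 and 126. The antimicrobial peptide genes of the epidermis, the *nlp* and *cnc* genes that respond to wounding and fungal infection, had none of 13 probe sets past 2-fold and a median of 0.16. *nlp-29* gave 499 and 520.1 and *cnc-4* gave 1478 and 1283.

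Transcripts of the major sperm proteins were modestly lower in *kgb-1*, without passing 2-fold. The major sperm proteins are the motility proteins of the amoeboid sperm and are also the signal for oocyte maturation. Of the 23 measured *msp* probe sets, 22 lay below 0 and 1 above, none passed 2-fold, and the median log2 ratio was −0.39. That median lies within 0.41 of 0, which is 2 SD of the hybridization controls. This SD is of single ratios, so it sets no limit for a list median, whose spread was not estimated. The summed signal of the *msp* probe sets was 51778 in wild type and 40132 in *kgb-1*. *msp-78* gave 6131 and 4095, *msp-64* gave 742 and 477, *msp-32* gave 458 and 299, *msp-45* gave 1028 and 694, and *msp-36* gave 2412 and 2223. *msp-74* was the one above 0, with 453 and 641. The family is nearly identical in sequence, so its probe sets read overlapping transcripts and are not independent measurements. With the probe sets that match several *msp* genes included, 29 of 30 were below 0 with a median of −0.35.

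In copper the *msp* probe sets gave the same picture, with 22 of 23 below 0 and a median of −0.41. *msp-78* gave 5991 and 3886 there and *msp-74* gave 625 and 396. Other sperm genes differed less in water, with 11 of 17 below 0 and a median of −0.07. Their dim members *gsp-4*, a sperm phosphatase, and *nspd-1* gave 114 and 61.9 and 223 and 152, whereas *ssp-37* gave 719.5 and 859 and *spe-39* gave 1209.6 and 1116. By comparison 47.1% of all measured probe sets were below 0 in water. Outside these lists, and picked with their values in view, 2 dim probe sets with several symbols were 2-fold lower in water. The set shared by *spch-2* and *spch-3* gave 125 and 60.1, and the set shared by *sss-1* and *T13F2.9* gave 134 and 66.3.

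Oocyte and egg activation genes were close to level. Of 49 measured probe sets, none passed 2-fold in either direction, 36 lay below 0 and the median was −0.05. Their summed signal was 237575 in wild type and 226884 in *kgb-1*. *pos-1*, a maternal RNA-binding protein, gave 13432 and 12596, the cyclin *cyb-3* gave 14517 and 14075, and *gld-1*, a translational repressor of the germ line, gave 5255 and 4809.6. The kinase gene *mbk-2*, which acts at egg activation, gave 1077 and 771, and a dim second probe set of *gld-1* gave 70.6 and 114.

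Eggshell genes had 15 of 18 probe sets below 0 and a median of −0.08, with none past 2-fold. *perm-4* gave 24885 and 24272, and *cpg-2*, a chondroitin proteoglycan of the eggshell, gave 23070.3 and 21421. The P granule list, which holds the germ line helicase *glh-1* and other proteins known to bind KGB-1, had a median of −0.00 over 23 probe sets. *glh-1* gave 3518 and 3627 on one probe set and 1451 and 1428 on another, *csn-5* gave 2827 and 2621 and *pgl-1* gave 2088 and 2083. Meiosis genes had a median of −0.04 over 26 probe sets, from 494 and 371 for *him-5* to 815 and 1081 for *syp-3*. No list of the female germ line had a probe set past 2-fold in water.

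Genes that embryos transcribe early lay mostly above 0. Of 29 measured probe sets, 21 were above 0 and none passed 2-fold, and the median was 0.20. That median lies within 0.41 of 0, which is 2 SD of single control ratios, and the spread of a list median was not estimated. The list was dim, with a median wild-type signal of 270. All measured probe sets with a mean signal under 300 had a median of 0.07, and those above 3000 had one below 0. The oocyte and eggshell lists were bright, with median wild-type signals of 4062 and 14400, so their contrast with this list was not separated from brightness. The endoderm factor *end-1* gave 112 and 165, the epidermal factor *elt-1* gave 282 and 391 and *pes-10* gave 309 and 385, while *sdz-38* gave 135 and 85.1. In copper 16 of 29 were above 0 with a median of 0.11, and *end-1* gave 219.8 and 206.

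The intestine held single lower genes in families that were otherwise level. The 8 vitellogenin probe sets had a median of −0.08 and ran from −0.20 to 0.20. *vit-6* gave 32852 and 28680.3, and *vit-2* gave 12658 and 13065. The 27 probe sets of intestinal identity and transport genes had a median of −0.01. *elt-2*, the GATA factor of the intestine, gave 216 and 172, the esterase *ges-1* gave 431 and 533, the intestinal actin *act-5* gave 5138 and 4205, and the intermediate filament gene *ifd-2* gave 233 and 119.1.

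Among 20 protease probe sets, 2 (10%) were 2-fold lower, beside 0.934% of all measured. Both belonged to *cpr-3*, which encodes a cathepsin B-like cysteine protease. They gave 361 and 93.4 and 337 and 90.7, at least 3.61-fold and at least 3.37-fold lower. The aspartic protease *asp-1* gave 21897 and 19244, and *cpr-4* gave 6677 and 9193. The rest of the protease list thus stayed within 2-fold while its median was 0.03.

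Genes of the intestinal defence repertoire differed singly. Among 54 C-type lectin probe sets 3 (5.56%) were 2-fold lower, beside 0.934% of all measured. Of the same 54, 1 (1.85%) was 2-fold higher, beside 0.601%, and the median was 0.01. *clec-66* gave 395 and 111, 3.56-fold lower, *clec-67* gave 283 and 121, *clec-174* gave 141 and 61.9, and *clec-52* gave 77.2 and 163. The galectins *lec-11*, *lec-8* and *lec-10*, which bind galactosides, were all lower, with 1110.1 and 402, 4175 and 2262, and 4554 and 2740.3. These 3 were named because they passed the genotype test described below, and other galectins are not counted here. Of 27 lysozyme and saposin probe sets, *spp-12* alone passed 2-fold, toward higher (3.70%, beside 0.601% of all measured). It went from 4.46 in wild type to 144 in *kgb-1*, which is at least 1.44-fold higher. *lys-2* gave 2922 and 1544, *lys-4* gave 4657 and 8322 and *lys-7* gave 5130.0 and 3928.

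Pathogen and stress response genes had a median of −0.06 over 39 probe sets. *irg-5*, a gene induced by infection, gave 149 and 364, 2.45-fold higher, and *dod-23* gave 6045 and 3082. Of the detoxification families, the P450 gene *cyp-13A5* gave 647 and 244, 2.65-fold lower, and the glutathione transferase gene *gst-22* gave 223 and 98.5, at least 2.23-fold lower. They were the single members past 2-fold in lists of 30 and 25 probe sets with medians of 0.02 and 0.04. These shares were 3.33% and 4%, beside 0.934% of all measured. The 37 glucuronosyltransferase probe sets had a median of 0.14, with *ugt-32* at 69.98 and 148 and *ugt-44* at 397 and 215. Lipid genes were level, with medians of 0.01 over 12 desaturase and elongase probe sets and 0.09 over 80 of beta-oxidation. Of the 80, *dhs-5* alone was 2-fold lower at 121 and 44.2, which is 1.25% and close to the 0.934% of all measured.

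Genes that metals are known to induce gave close signals in the unstressed animals. The metallothionein *mtl-1* gave 386 in wild type and 421 in *kgb-1*, and the 3 probe sets of *mtl-2* gave 10719.7 and 10555, 13551 and 13502, and 12047 and 11819. None of 21 metal response probe sets passed 2-fold, and the median was −0.03. The most different was *cutc-1*, a copper homeostasis gene, with 1941 and 1229 in water and 808 and 1226 in copper. Inducible heat shock genes had a median of 0.01 over 10 probe sets, and *hsp-16.2* gave 622 and 579.7.

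In muscle the outlying probe sets stood against others of the same gene. The largest increase among the 15 named by size was a probe set of *lev-11*, the tropomyosin gene, with 227 and 751 in water and 219 and 277 in copper. Its 3 other probe sets gave 3075 and 2679.8, 2215 and 2228, and 571 and 664. A probe set of *unc-89*, which encodes a giant sarcomere protein, gave 104.4 and 32.3, while the 3 others of that gene had log2 ratios from −0.20 to 0.10. The median of 39 muscle probe sets was −0.01. Among 20 neuronal probe sets *unc-104*, a kinesin gene, and *syd-2*, a liprin gene, were 2-fold higher at 82.7 and 176 and at 49.7 and 107. These made up 10% of the list, beside 0.601% of all measured, and both had a wild-type signal under 100. A second *syd-2* probe set gave 163 and 209. Pharynx genes had 11 of 13 probe sets above 0 in water, with a median of 0.20, and a median of −0.04 in copper. Neuropeptide genes had none of 52 past 2-fold.

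The genes of the KGB-1 cascade, and others listed with it, were close in the 2 strains. The list also holds genes outside the cascade, such as *pmk-1*, *hda-1*, *atf-7*, *rpm-1* and *glh-1*. Of its 31 measured probe sets for 22 genes, none passed 2-fold, 19 lay below 0 and the median was −0.04. The MAPKK gene *mek-1* gave 2937 and 2503, the MAPKKK gene *mlk-1* gave 109 and 127, the paralogous kinase *kgb-2* gave 136 and 115, and the phosphatase *vhp-1* gave 410.1 and 296 on one probe set and 105.02 and 94.4 on another. The kinase *max-2*, which acts upstream of MLK-1, gave 931 and 1037, and its partner *rack-1* gave 18425 and 17214.

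The transcription factor *fos-1*, a KGB-1 substrate, gave 184 and 121 on one probe set and 297 and 262 on another, with 217 and 261 and 604 and 467 in copper. *jun-1* gave 633 and 542 and 191 and 186, and the deacetylase *hda-1*, which acts with FOS-1, gave 1351 and 1449. In the parallel p38 cascade, *sek-1* gave 349 and 404 and 102 and 164, and *pmk-1* gave 286 and 287.

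Of the study's 6 KGB-1 regulated genes, 4 had a probe set under their own symbol, and *Y105C5A.12* and *Y105C5A.13* shared one that stayed under the minimum in water, with 31.2 and 36.5. Of the 4, 2 reached the signal minimum in water, and both were lower. The list was chosen by the study on these samples, so its direction is not independent evidence. *kreg-1* gave 176 in wild type and 37.2 in *kgb-1*, at least 1.76-fold lower, and 1034 and 121.7 in copper. *K11H12.4* gave 330.2 and 79.4, at least 3.30-fold lower, and 894 and 193 in copper. *lys-3*, also called *kreg-2*, stayed under the minimum in water with 89.9 and 4.31. *nhr-50* was under it with 49.8 and 52.4 and with 37.2 and 14.2.

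A run of neighbouring genes on chromosome II was higher in the mutant. F-box and BTB proteins are substrate adaptors of ubiquitin ligases, and the worm genome holds a large number of them. Of 113 measured probe sets of these families, 4 were 2-fold higher, beside 0.601% of all measured, and none was lower, with a median of 0.04. All 4 lie in one stretch from 986003 to 1049949 on chromosome II (WBcel235), 63.9 kb long, which was chosen after the values were seen. The 7 measured probe sets in it had log2 ratios between 0.42 and 1.32 in water and between 0.57 and 1.58 in copper, with medians of 1.21 and 1.07.

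From one end to the other, *fbxc-40* gave 192 in wild type and 469 in *kgb-1*, *fbxc-42* gave 159 and 212, *fbxb-30* gave 63.4 and 115, *F45D11.5* gave 96.9 and 211, *btb-11* gave 313 and 760.4, *fbxb-41* gave 183 and 456 and *fbxb-40* gave 66.7 and 155. All 7 were higher in *kgb-1* in water. In copper *btb-11* gave 404 and 849 and *fbxb-41* gave 210.0 and 456. The 23 other probe sets within 160 kb of *btb-11* had none past 2-fold and a median of 0.15, and the 107 family members outside the stretch had a median of 0.01. The ends of the stretch were set, with the values seen, around the family probe sets past 2-fold. That no family member outside it passed follows from this choice, and the flanking count is a description. Of 995 bins of 100 kb with measured genes, this was the only one that held 3 or more genes 2-fold higher, while 3 bins held 3 or more genes 2-fold lower.

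**Figure D4:**
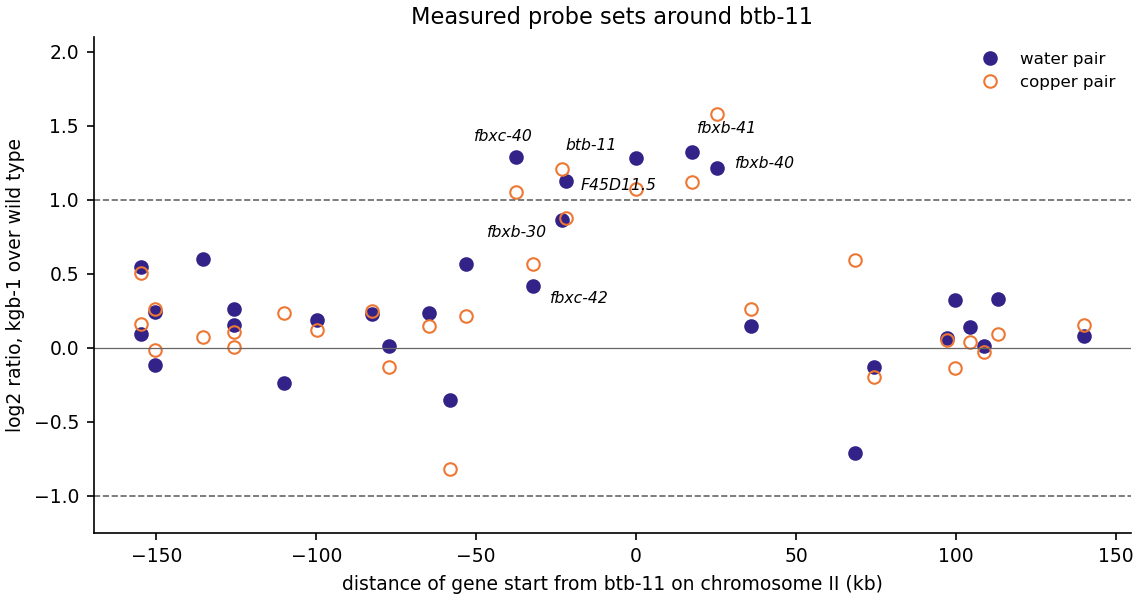
Log2 ratio of *kgb-1* over wild type for measured probe sets by distance (kb) from *btb-11* on chromosome II, in water and in copper. The 7 probe sets of the stretch lie above 0 in both pairs, with medians of 1.21 and 1.07, and the flanking probe sets scatter around 0.15 in water.

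By nuclear chromosome, probe sets 2-fold lower made up between 0.375% of those measured on chromosome I and 1.29% on chromosome IV, and 2-fold higher ones between 0.225% on chromosome III and 0.855% on chromosome V. Of 8 mitochondrial probe sets 1 was 2-fold higher. *kgb-1* lies on chromosome IV from 405621 to 410033. Within 1 Mb of it 124 probe sets were measured, 2 were 2-fold lower and none was higher, with a median of 0.01. The 2 were *K11H12.4*, at 674035 to 675883, and *W09G12.7*, at 1229080 to 1230793, which gave 196 and 70.5 in water and 328 and 82.8 in copper.

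The copper pair of arrays offered a separate look at the same genotype difference. Of the 101 probe sets 2-fold lower in water, 94 had a copper log2 ratio below 0 and 60 were 2-fold lower there too, while 7 were above 0. Of the 65 higher ones, 54 were above 0 in copper, 15 were 2-fold higher and 11 were below 0. For comparison, 1.14% of the same measured probe sets were 2-fold lower in copper and 1.08% higher, and 50.1% of all were below 0. The median of the lower group was −1.35 in water and −1.201 in copper, and that of the higher group was 1.198 and 0.55. The pairs share no array, but both held the same 2 strains, so a difference between the cultures would appear in each.

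**Figure D5:**
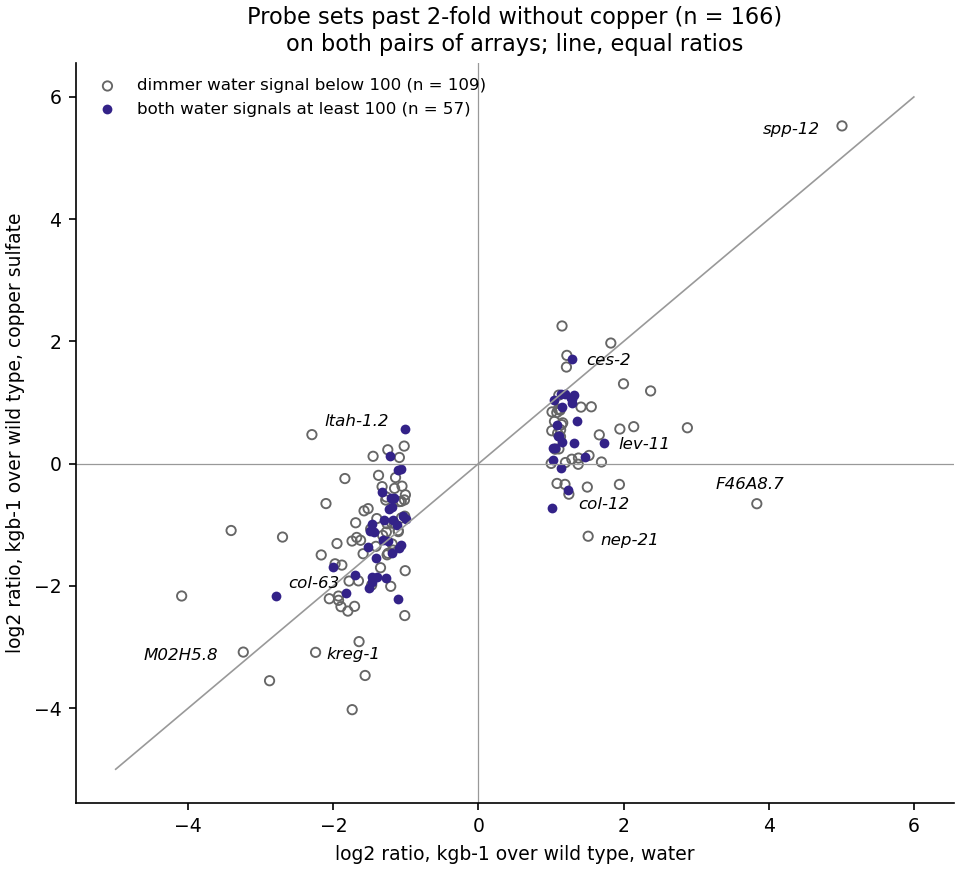
Log2 ratio of *kgb-1* over wild type in copper (vertical axis) against that in water (horizontal axis) for the 166 probe sets past 2-fold in water. Of the 101 lower ones 94 are below 0 in copper, and of the 65 higher ones 54 are above 0.

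A fit over all 4 arrays gave the one test that the design allows. In limma, with genotype and copper as additive factors, the genotype term is the mean difference over both treatments, estimated with 1 residual degree of freedom and a prior of 5.19. Of 11266 probe sets whose brightest signal reached 100, 32 fell in *kgb-1* (0.284%) and 6 rose (0.0533%) at an adjusted p under 0.05. Of these, 27 and 5 were 2-fold different in water. At an unadjusted p under 0.05, limma gave 591 lower and 622 higher. With every signal under 100 raised to 100, 2 calls were left, *M02H5.8* and *ZK105.1*, both lower. Of the 38 calls, 29 had all 4 signals at 100 or above and so the same difference in that fit, but 28 of them then missed the threshold (limma adjusted p from 0.0572 to 0.106). The other 9 had a signal under 100, and where such a difference is printed below, that of the raised fit follows it as a bound. With 1 array a group, the residual comes only from how the genotype ratio differed between water and copper. The p-values therefore measure no replicate spread, and a genotype difference that depended on copper counts as error.

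*M02H5.8* had the smallest adjusted p, with a log2 genotype difference of −3.16 ± 0.16 (SE, limma adjusted p = 0.00739) on the deposited values and of −2.80 (limma adjusted p = 0.0244) with dim signals raised. That of *ZK105.1* was −1.76 ± 0.10 (limma adjusted p = 0.0105). Among the cuticle genes, *col-63* fell by 2.48 ± 0.18 (limma adjusted p = 0.0194), *rol-8* by 1.77 ± 0.18 (limma adjusted p = 0.0274, and at least 1.69 with dim signals raised), *dpy-5* by 1.78 ± 0.17 (limma adjusted p = 0.0219), *col-38* by 1.57 ± 0.18 (limma adjusted p = 0.0384) and *col-73* by 0.96 ± 0.09 (limma adjusted p = 0.0219) on the log2 scale. The set shared by *col-161* and *col-162* fell by 1.85 ± 0.15. *dpy-17* rose by 0.87 ± 0.10 (limma adjusted p = 0.0397). Thus 3 of the 75 measured *col* probe sets with 1 symbol and 2 of 19 shape collagen probe sets passed toward lower, beside 0.284% of all tested. Toward higher, 1 shape collagen passed, beside 0.0533% of all tested.

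In the tetraspanin and claudin-like list 4 of 20 probe sets fell, beside 0.284% of all tested, and none rose. *tsp-2* fell by 2.05 ± 0.17, at least 1.91 with dim signals raised, and the 2 probe sets of *clc-1* by 1.44 ± 0.12 and 1.66 ± 0.14, each with a limma adjusted p of 0.0194, and *clc-19* fell by 1.62 ± 0.16 (limma adjusted p = 0.024). Of the intestinal genes, *clec-66* fell by 1.97 ± 0.16, *cyp-13A5* by 1.48 ± 0.12, and one *cpr-3* probe set by 2.12 ± 0.19, at least 1.97 with dim signals raised, while the other *cpr-3* probe set missed the threshold (limma adjusted p = 0.0548). *lys-2*, *dod-23*, *lec-8*, *lec-10* and *lec-11* fell by 1.13, 0.91, 0.92, 0.77 and 1.22. *kreg-1* fell by 2.67 ± 0.25 (limma adjusted p = 0.0219), at least 1.95 with dim signals raised (limma adjusted p = 0.319). *K11H12.4* fell by 2.13 ± 0.15 (limma adjusted p = 0.0194), at least 1.97 with dim signals raised. The study picked *kreg-1* and *K11H12.4* with these arrays, so neither their direction nor their p-values are independent evidence.

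The other genes that fell were *ZK180.5*, *dbd-13*, *F41F3.3*, *srlf-30*, *F22H10.2*, *K09D9.1*, *F47D12.6*, *W08A12.2*, *ram-2* and *F37C4.5*. *ram-2* gave 869 and 386 in water, while a second probe set, which missed the threshold, gave 1734 and 1164, *F22H10.2* gave 951 and 416, and *F37C4.5*, the brightest, gave 6633 and 4313. Besides *dpy-17*, the genes that rose were *ces-2*, by 1.50 ± 0.17 (limma adjusted p = 0.0397), *hch-1*, by 1.17 ± 0.13 (limma adjusted p = 0.0397), *C50F7.5*, by 1.04 ± 0.12 (limma adjusted p = 0.0384), and 2 genes of the chromosome II stretch, *btb-11*, by 1.18 ± 0.13 (limma adjusted p = 0.0323), and *fbxb-41*, by 1.22 ± 0.14 (limma adjusted p = 0.0397). *C50F7.5* gave 393 and 870.4 in water and 1809 and 3435 in copper. No probe set of the *msp*, oocyte, eggshell, P granule or vitellogenin lists passed this test.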

How the data were processed

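RNA of whole adults was hybridized to Affymetrix *C. elegans* arrays, 1 array a group (3′ IVT Express labelling from 250 ng total RNA, processed once by a service company). The authors deposited MAS5 signal intensity values, 1 per probe set, scaled to a common trimmed mean. The MAS5 version is not given in the sources used here. The depth of an array is its signal over background, and the single array per group limits the precision. Ratios are log2 of *kgb-1* over wild type on the deposited values, and probe sets past 2-fold were counted without a test. The genotype difference was tested with limma 3.58.1 (R 4.3.3), additive in genotype and copper, with Benjamini-Hochberg adjustment. A check on simulated data used the same noise level for all probe sets, so it does not cover the wider spread of dim ones. Tables and figures used Python 3.11.15, numpy 2.4.6, pandas 2.3.3 and matplotlib 3.10.9.

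Probe sets were named from the platform table, updated to RefSeq WBcel235 symbols by Entrez ID. Of worm probe sets, 20766 had 1 symbol (20701 matched RefSeq), 887 had several and are not assigned to a gene, and 895 had none. Named are the KGB-1 cascade and study target genes, the 15 largest rises and 15 largest falls in water with signals under 100 raised to 100, up to 3 highest, 3 lowest and 3 brightest members of each list, and the probe sets past the genotype test. Any further gene was picked with its values in view. The members and the 44 gene lists were chosen with earlier results of these data known. Alternatives were signal minimums of 50 and 200 or none, quantile normalization, equal medians, an offset of 32, dim signals raised to 100, probe sets without a shared-sequence suffix, no copper factor, and each array left out.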

Additional observations from a re-analysis of the deposited data

Results flagged for a closer look

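For 10 probe sets with 1 gene symbol past 2-fold in water, the single copper pair gave a difference of the opposite sign and of more than the spread of the hybridization controls. Probe sets with several symbols or none were not counted here, and some of them also turned. With 1 array a side the difference between the pairs was not tested. All 4 signals were at 100 or above for *nhr-105*, *col-12* and *pccb-1*. The other 7 probe sets had signals under 100 in both pairs or in 1 of them, where values carry little order, and their ratios are given as deposited and not as measured changes. For *ltah-1.2* the log2 ratio of *kgb-1* over wild type was −2.296 in water, with signals of 128 and 26.1, and 0.47 in copper, with 46.96 and 65.3, and for *nhr-105*, a nuclear hormone receptor gene, it was −1.01 and 0.56. The collagen *col-12* gave 1.23 and −0.43. *pccb-1*, a propionyl-CoA carboxylase subunit, gave 1.02 and −0.73, and *ugt-32* gave 1.08 and −0.32. *D2092.8* gave 1.19 and −0.34, *F48G7.4* gave 1.25 and −0.50, and *nep-21* gave 1.51 and −1.19. *F46A8.7* gave 3.84 and −0.66, with all 4 signals at or under 110.3. A dim probe set of the ribosomal protein gene *rpl-12* gave 1.50 and −0.38, while its 2 bright probe sets gave −0.03 and −0.07 in water.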

How the results depend on the processing

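The counts past 2-fold depended on how dim signals were treated. The 101 lower probe sets became 254 at a signal minimum of 50, 48 at 200, 61 with an offset of 32, 48 with dim signals raised to 100 and 62 among probe sets without a shared-sequence suffix. The 65 higher ones became 244, 26, 28 and 26 under the first 4 of these. Lower probe sets with a copper ratio below 0 went from 94 to 185, 46, 58, 46 and 56 in the same order, and higher ones with a copper ratio above 0 from 54 to 156, 23, 25 and 23. Apart from the minimum of 200, these settings for the copper pair were chosen after seeing the data, as were lists with probe sets of several symbols. The 12 lower *col* probe sets became 6 at a minimum of 200, with the offset and with dim signals raised. The 4 lower *abu* and *pqn* probe sets became 1 in each of those and 0 without suffixed probe sets, and the 4 higher F-box and BTB probe sets became 2 without them. Equal medians, which shift the water ratio by 0.053, and quantile normalization left all these counts within 1.5 times. List medians moved by more than the control spread only for the furrow collagens and for the tetraspanin and claudin-like list, at −0.39 with a minimum of 200. For the furrow collagens this was the single probe set left without suffixed ones, as given above.

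In the limma test the 32 lower probe sets became 52 at a minimum of 50, 100 with equal medians, 2 with dim signals raised, 12 without suffixed probe sets and 2 without copper as a factor. The 6 higher ones became 11, 41, 0, 0 and 0, and 1 at a minimum of 200. With each array left out in turn, which needs a fit without the copper factor, 0 to 3 lower and 0 to 1 higher probe sets were called, and the *C50F7.5* difference ran from −0.065, without the wild-type water array, to 2.14. These values follow from the construction, since with 3 arrays and no copper term a group of 2 treatments is set against 1 treatment, and *C50F7.5* was 1809 in wild type in copper against 393 in water. Both like-for-like pairs were higher in *kgb-1*, by 1.15 and 0.92 on the log2 scale. All 38 calls held under equal medians, quantile normalization, the offset and the minimum of 50. No paired analysis was possible because each group has 1 array, so no groups share 2 replicate numbers. The promoter motif comparison was not run.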

Other observations

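Housekeeping families were level in water. Cytosolic ribosomal proteins had 83 of 93 probe sets below 0, with a median log2 ratio of −0.08, and a median of −0.16 in copper. *rpl-3* gave 25574 in wild type and 24007 in *kgb-1*. Proteasome and respiratory chain genes had medians of −0.04 over 39 and −0.01 over 50 probe sets, with none past 2-fold, and histones had a median of −0.03 over 25. The mitochondrially encoded complex I gene *ND5* gave 67.1 and 259 in water, at least 2.59-fold higher, and 139 and 206 in copper.

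Nuclear hormone receptors had a median of 0.12 over 88 probe sets, with 57 above 0. *nhr-114* gave 148 and 325 in water but 138 and 130.5 in copper, *nhr-53* gave 41.1 and 118, and *nhr-105* gave 208 and 103. The bright receptor *nhr-49*, a regulator of fat metabolism, gave 2159 and 2203. Of 1279 chemoreceptor probe sets on the array 6 were measured, and the 3 measured probe sets of the coelomocyte and uterus list had a median of 0.24.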
